A study of Rattus norvegicus with 24 samples.

Results

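The genes described here are Hcn2, Hcn3 and Hcn4 (ENSRNOG00000008831, ENSRNOG00000020444 and ENSRNOG00000009450), which encode channels of the hyperpolarization-activated, cyclic nucleotide-gated (HCN) family. They were chosen by name and are 3 of the 32881 genes that all count files share. The neurons were dissociated from the L4 and L5 dorsal root ganglia (DRG) of male Sprague-Dawley rats and picked one by one by mouth pipette. In spared nerve crush (SNC), the tibial and common peroneal branches of the sciatic nerve are crushed and the sural branch is left intact. The 16 labelled DRG samples came from rats whose nerve branches had been injected with fluorescent dyes, sham rats included. There were 4 such samples from sham rats and 4, 3 and 5 from rats killed 1, 3 and 7 days after SNC. Crushed and uncrushed neurons of an SNC sample are described together, since the cell names carry no dye. A further 7 libraries, added later, are labelled sham at 0, 1, 3 or 7 days, carry no dye entry in their labels and are kept apart as added sham. Of 1464 cells, 1433 had no fewer than 500 genes and 1000 transcripts and under 5% mitochondrial transcripts and were kept, of which 930 were labelled and 503 added sham.

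HCN channels open when the membrane becomes more negative and carry an inward current of sodium and potassium that brings the cell back toward firing threshold. In the heart and in rhythmic neurons this current sets the pace of firing, and in sensory neurons it affects repetitive firing and has been studied in relation to pain after nerve injury. Cyclic AMP binds to the intracellular end of the channel. It shifts the opening of HCN2 and HCN4 strongly, and that of HCN3 little or not at all. HCN4 is the main pacemaker channel of the sinoatrial node, and HCN2 is widespread in brain and sensory neurons.

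Every value rests on unique molecular identifiers (UMIs), the number of distinct transcript molecules counted in a cell at the 3′ end. The UMIs of the cells were summed per DRG sample, to between 4002503 and 28975829 UMIs in labelled samples and between 14004136 and 40732975 in added libraries, and levels are given as CPM, the counts scaled to a common library total. The labelled sham samples did not stand apart from the SNC samples in genes of nerve injury. Gal, the neuropeptide galanin, lay between 606 and 2323 CPM in labelled sham and between 554 and 1332 CPM in the SNC samples, and Atf3, a transcription factor induced by axon injury, between 364 and 950 CPM against 371 to 645 CPM. Sprr1a, a gene of axon regrowth, gave the same picture with 65.3 to 282 CPM in labelled sham and 54.9 to 243 CPM after SNC. In added sham, Gal was 1.71 to 22.2 CPM, Atf3 76.2 to 198 CPM and Sprr1a at most 0.223 CPM. The labelled sham group can therefore not be read as a baseline without an injury response, and each comparison with it below is a comparison with neurons that carry these transcripts. Neuronal markers were present throughout (Tubb3 and Snap25 in 100% of cells).

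Hcn4 was the most abundant of the members. Over all labelled neurons its level was 14.9 CPM, against 3.05 CPM for Hcn2 and 2.69 CPM for Hcn3, and 67.0% of labelled cells had at least 1 UMI of Hcn4, 26.7% of Hcn2 and 26.0% of Hcn3. The order was the same in added sham, at 26.6, 7.28 and 4.41 CPM. The counts behind these values were 9242 UMIs for Hcn4, 2264 for Hcn2 and 1591 for Hcn3. Because 1 molecule gives 1 UMI whatever its length, these levels can be set side by side without a length, but they depend on how well the annotated 3′ end of each gene fits the neuron's transcripts, which was not tested. Ranked by labelled UMIs among 24765 genes with any count, Hcn4 stood at 7586, Hcn2 at 10844 and Hcn3 at 11084.

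Most labelled neurons held a UMI of at most 1 member. Of the 930 labelled neurons, 95 had a UMI of all 3 members, 221 of 2, 386 of 1 and 228 of none, and of the 503 added sham neurons 124 had all 3 and 48 none. All 3 were found in 34.9% of labelled NF-like neurons, the neurofilament-rich neurons described next, and in 4.50% of the others. The median depths were 487892 and 204110 UMIs. Across labelled cells the correlation of the members was low. Pearson's r of log2(CPM + 1) was 0.14 for Hcn2 with Hcn3, 0.13 for Hcn2 with Hcn4 and 0.14 for Hcn3 with Hcn4. The 930 cells share libraries and differ in depth, and most had no UMI of Hcn2 or of Hcn3. With counts this sparse, a low r cannot show that the members vary apart.

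The labelled neurons formed 10 clusters, numbered from 0 by size, with the members kept out of the genes used for clustering. Names were given from marker genes and end in "-like". Clusters 0, 1 and 2 were like the peptidergic nociceptors PEP1, PEP2 and PEP3, and clusters 5 and 7 like the somatostatin itch neurons (SST). Clusters 3 and 4 were like neurofilament neurons (NF), a type that includes neurons of touch and position. Of 10 NF markers 9 were high in cluster 3, but only 4 in cluster 4 (Nefh, Nefl, Ntrk3 and Ldhb). Scn10a, a sodium channel gene and PEP3 marker, was 148 CPM in cluster 4 against 7.70 CPM in cluster 3. Whether cluster 4 holds touch neurons was not tested. Cluster 6 was like the nonpeptidergic nociceptors (NP), cluster 9 like cold-sensing neurons, and cluster 8 stayed unnamed because 7 of 8 glial markers were high in it. The share of a type's markers that were high was 7 of 16 in cluster 0, 11 of 15 in cluster 1 and 21 of 27 in cluster 2. It was 3 of 5 in cluster 5, 4 of 5 in cluster 7, 6 of 7 in cluster 6 and 4 of 4 in cluster 9. Some markers had their highest means where the names place them. Nefh, the heavy neurofilament chain, was 1275 CPM in cluster 3, and Trpm8, the cold receptor, 325 CPM in cluster 9. Apoe, a gene of satellite glia, was 1913 CPM in cluster 8. Sst, the somatostatin gene, was 1288 CPM in cluster 7 but only 119 CPM in cluster 5. Tac1, the substance P precursor, was highest in cluster 2 at 2697 CPM, and Gal in cluster 0 at 1931 CPM. Tac1 is a PEP1 marker too, but at 845 CPM in cluster 0 it was below clusters 5, 7, 8 and 9 (899 to 1440 CPM). The differences between clusters are descriptions, because the clusters were made from the same cells.

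Hcn2 was highest in the NF-like clusters. Its mean over DRG samples with at least 3 such cells was 7.20 ± 4.55 CPM (SD, n = 12) in cluster 3 and 4.66 ± 2.87 CPM (n = 15) in cluster 4. PEP3-like neurons followed at 3.39 ± 1.87 CPM (n = 11). The other 7 clusters had means from 0.594 to 2.06 CPM, the lowest in the glia-rich cluster 8. Neighbours in this order were not separated beyond their spread. Cluster 3 lay above cluster 4 in 8 of 12 shared samples (difference 2.28 ± 5.22 CPM), and cluster 4 above PEP3-like neurons in 7 of 11.

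**Figure D1:**
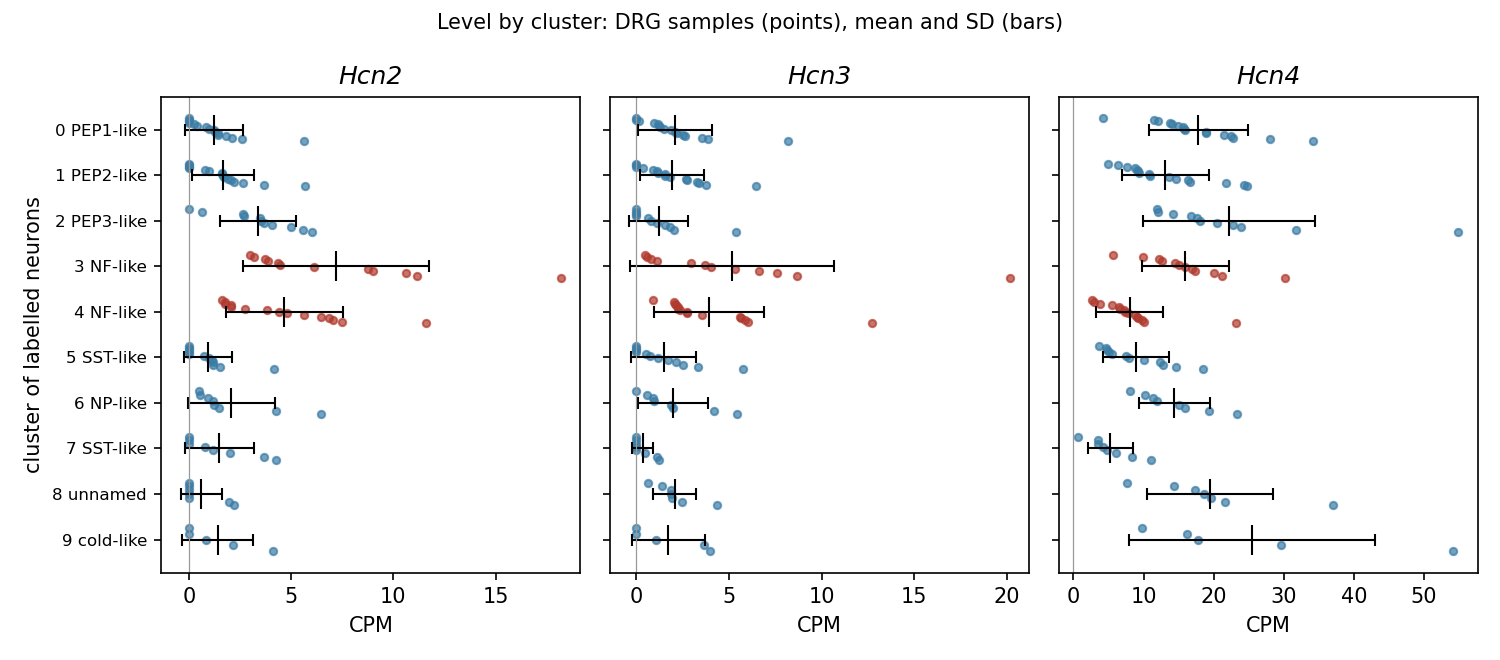
Levels of Hcn2, Hcn3 and Hcn4 in CPM (horizontal axes, linear, one scale per gene) in the 10 clusters of labelled neurons. Each point is 1 DRG sample with at least 3 cells of the cluster, bars are the mean and SD, and NF-like clusters are red; for Hcn2 no sample of an NF-like cluster is at 0, while the Hcn4 points of cluster 4 lie mostly below 10 CPM.

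With both NF-like clusters pooled, Hcn2 was 5.67 ± 3.27 CPM in NF-like neurons and 1.73 ± 0.789 CPM in the other neurons of the same 15 samples, and it was higher in the NF-like neurons in 15 of 15. NF-like neurons made up 18.8% of labelled cells and 33.3% of their UMIs, and held 63.8% of the UMIs of Hcn2. A UMI of Hcn2 was found in 62.9% of 175 NF-like neurons and in 18.3% of 755 others. The NF-like neurons were also counted more deeply, with a median of 487892 against 204110 UMIs per cell. With each cell thinned to 20000 UMIs the shares were 10.3% of 175 and 1.97% of 711 cells, 44 shallower cells having been left out.

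Hcn3 was likewise highest in the NF-like clusters. The means were 5.19 ± 5.48 CPM (n = 12) in cluster 3 and 3.94 ± 2.94 CPM (n = 15) in cluster 4, and the other 8 clusters lay between 0.366 and 2.10 CPM. The lowest level, 0.366 ± 0.551 CPM (n = 8), was that of the Sst-rich cluster 7. Cluster 3 lay above cluster 4 in 6 of 12 shared samples, so the NF-like clusters were not in a stable order. In cluster 3 the wide spread came in part from a single neuron of sample 16 (1 day) with 71 UMIs of Hcn3, the highest count of the gene in any cell. Pooled, NF-like neurons had 4.54 ± 2.44 CPM and the others 1.69 ± 0.895 CPM, with the NF-like neurons higher in 14 of 15 samples and holding 58.0% of the UMIs of Hcn3. After thinning, 5.71% of NF-like and 3.23% of other neurons had a UMI of Hcn3. On thinned counts the PEP2-like mean rose to 3.78 CPM and was the highest of the named types, at a depth where 1 UMI in a cell is far above these levels, so no order is read from it.

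Hcn4 was distributed differently. Its highest mean, 25.5 ± 17.5 CPM (n = 5), was in the cold-like neurons, followed by 22.2 ± 12.3 CPM (n = 11) in PEP3-like neurons, 19.5 ± 8.97 CPM (n = 7) in cluster 8 and 17.8 ± 7.05 CPM (n = 16) in PEP1-like neurons. The cold-like and PEP3-like clusters could not be put in order, as the cold-like neurons were higher in 1 of only 4 shared samples, and over samples with at least 5 cells the PEP3-like mean came first at 19.0 CPM and the cold-like mean was 13.8 CPM. The lowest levels were 8.93 ± 4.69 CPM (n = 12) in cluster 5, 8.03 ± 4.80 CPM (n = 15) in cluster 4 and 5.28 ± 3.21 CPM (n = 8) in cluster 7. The Sst-rich cluster 7 lay below the other neurons of its sample in 8 of 8 samples, and cluster 4 in 14 of 15.

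The NF-like clusters thus differed in Hcn4: 15.9 ± 6.18 CPM (n = 12) in cluster 3, whose leading genes are Shox2 and Ntng1, and 8.03 CPM in cluster 4, led by S100a16 and Kcnv1. With both clusters pooled, the level of 13.3 ± 5.46 CPM was higher than that of the other neurons (15.8 ± 4.60 CPM) in only 6 of 15 samples.

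**Figure D2:**
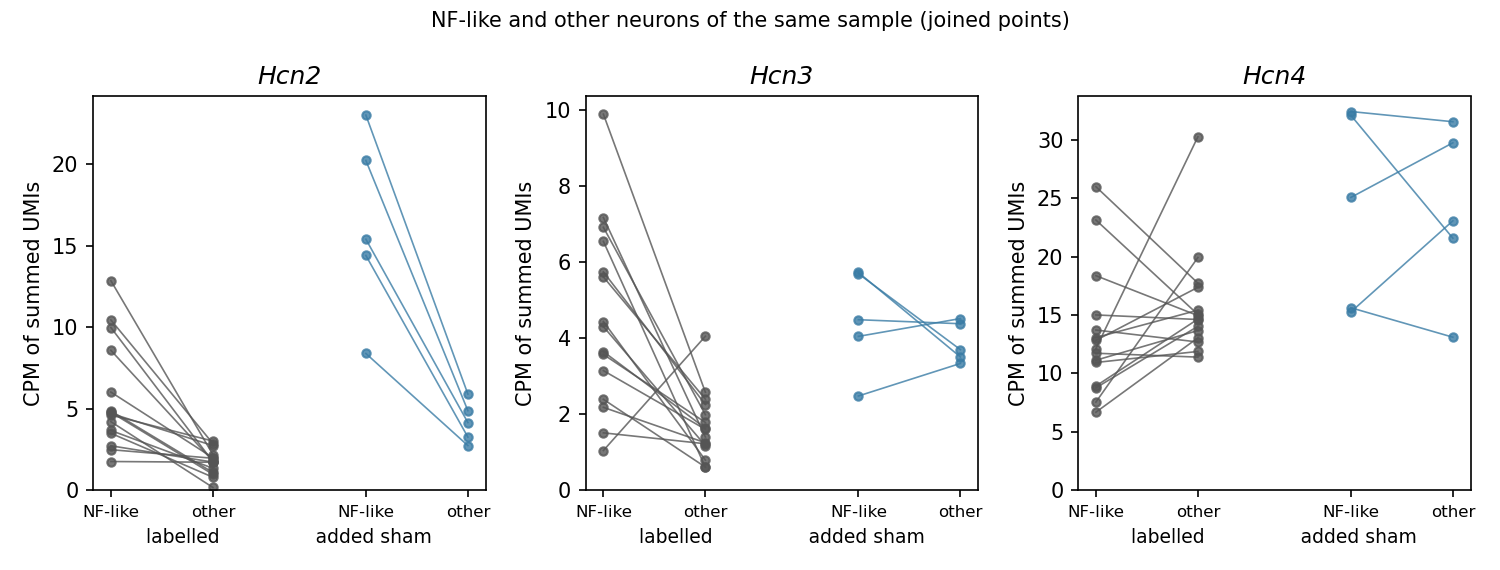
Levels of Hcn2, Hcn3 and Hcn4 in CPM (vertical axes, linear from 0) in NF-like neurons and in all other neurons of the same sample, joined by a line, for 15 labelled DRG samples (grey) and 5 added sham libraries (blue) with at least 3 cells of each kind. The lines of Hcn2 fall in every labelled sample and every added library, those of Hcn3 fall in 14 of 15 labelled samples and 3 of 5 added libraries, and those of Hcn4 go both ways.

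The added sham neurons were clustered on their own and formed 7 clusters, of which only 1 NF-like, 1 NP-like and 1 SST-like could be named. Hcn2 had the same place there: 16.3 ± 5.65 CPM (n = 5) in NF-like neurons and 4.18 ± 1.26 CPM in the others of the same libraries, higher in 5 of 5. The lowest means were 1.20 ± 0.836 CPM in NP-like neurons and 1.08 ± 1.52 CPM (both n = 7) in cluster 4 of the added cells, led by Cav1 and Rgs5.

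Hcn3 was higher in NF-like neurons (4.48 ± 1.34 CPM) than in the others (3.88 ± 0.530 CPM) in only 3 of 5 libraries. This is not the contrast made in labelled neurons, since the others here hold added cluster 0, with Nefh at 1287 CPM. The highest means of Hcn3 were 9.83 ± 7.73 CPM (n = 4) in added cluster 6 and 7.59 ± 3.66 CPM (n = 6) in added cluster 2. Added cluster 6 is a group of 17 cells in which 4 of 5 markers of low-threshold C-fibre neurons were high. Added cluster 2 is led by Rbp2 and Otof, with Mrgprb4 among its first genes. Hcn4 was highest in added clusters 4 (48.7 ± 17.1 CPM, n = 7) and 2 (45.2 ± 13.3 CPM, n = 6), followed by NP-like neurons at 32.4 ± 6.76 CPM (n = 7). It was lowest in SST-like neurons at 8.43 ± 11.3 CPM (n = 6), where the labelled Sst-rich cluster had its lowest level too. Whether the clusters differ between labelled and added neurons was not tested, as the clusters were made separately and their names need not mark the same cells.

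The genes most like each member were sought over the 110 sums of a labelled cluster in a DRG sample, among 8449 genes with a mean of at least 10 CPM. For Hcn2 these were Nefm (r = 0.65) and Nefl (r = 0.62), the middle and light neurofilament chains, and Hhatl (r = 0.61). Over the 41 cluster sums of the added libraries the same genes had r = 0.50, 0.52 and 0.46. For Hcn3 they were Rell1 (r = 0.58), Gabra5, a GABA receptor subunit (r = 0.53), and Nfasc, a cell adhesion gene of the node of Ranvier (r = 0.53), with r of only 0.065, 0.17 and 0.21 in the added libraries. For Hcn4 they were Ctnnd2, a delta-catenin (r = 0.56), Plcxd3 (r = 0.53) and Mef2c, a transcription factor (r = 0.53), with 0.38, 0.44 and 0.27 in added sham. These sums share libraries and depth, and no test was made of them. Between Hcn2 and Hcn4 r was 0.030 in labelled and -0.37 in added neurons.

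The question put to the labelled groups was whether the level of the channels differed at 1, 3 or 7 days after SNC. For none of the 3 members did it pass the test at any time. With edgeR's quasi-likelihood test over 14239 genes, the share of genes called at an adjusted p under 0.05 was 0% at 1, 3 and 7 days, so members that were not called stand where all other genes stood. At an unadjusted p under 0.05 there were 1243, 594 and 476 genes, and DESeq2 called 11, 1 and 0. Fewer cells of a type and less RNA of a gene per cell cannot be told apart in sums over all neurons.

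Hcn2 in sham was 0.50 CPM in sample Xin, 1.5 in sample 10, 2.15 in sample 18 and 6.63 in sample 4. At 1 day it was 5.22, 2.06, 1.72 and 3.73 CPM in samples 13, 16, 17-1 and 17-2, at 3 days 3.98, 1.11 and 2.18 CPM in samples 14, 15 and 17-3, and at 7 days 3.38, 1.47, 3.90, 3.06 and 3.97 CPM in samples 19-1, 19-2, 8, 9 and S. In these sums over all neurons the sham samples held both the lowest and the highest level, and enclosed the SNC samples of each time. Within named types the mean of Hcn2 was above the sham mean in 4 of 6 types at 1 day, 3 of 7 at 3 days and 5 of 6 at 7 days. Those means share samples and were not tested. The level of sample Xin rests on 2 UMIs, and in sample 4 a single neuron held 34 of 73. The share of NF-like neurons, the type with the highest Hcn2, was 4.17% of cells in sample Xin, 14.9%, 26.0% and 16.7% in samples 10, 18 and 4, and 11.7% to 41.7% in the SNC samples. Its part in the values was not tested. Without sample 4 the fitted log2 fold changes given next became 1.04, 0.67 and 1.04, with edgeR adjusted p = 0.615, 0.838 and 0.990. The fitted log2 fold changes were 0.16 (SE 0.58), -0.21 (SE 0.62) and 0.16 (SE 0.55) at 1, 3 and 7 days, with edgeR adjusted p = 0.955, 0.992 and 1.00. With errors of this size a change of about 2-fold would not be detectable.

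**Figure D3:**
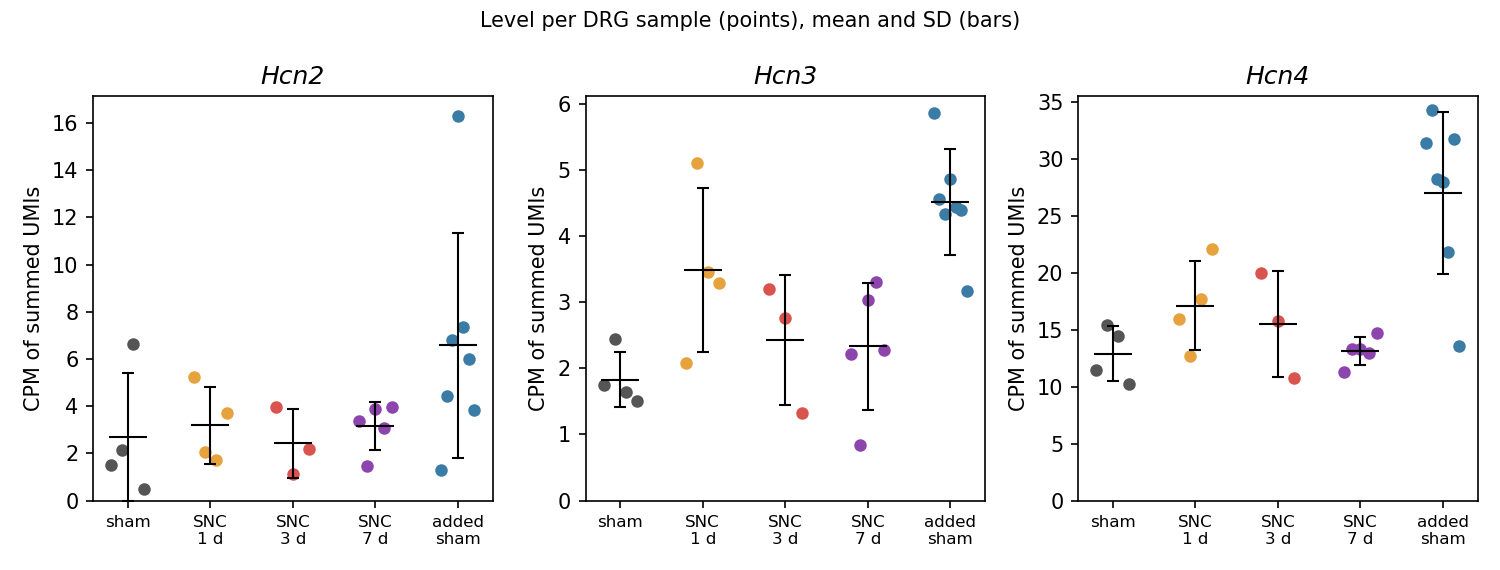
Level of each member in CPM (vertical axes, linear from 0) in the 4 labelled groups and the added sham libraries. Points are DRG samples or added libraries, and bars are the mean and SD; the labelled groups overlap for all 3 genes, and for Hcn3 all 7 added libraries lie above the 4 labelled sham samples.

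Hcn3 in sham was 1.5, 1.75, 2.44 and 1.63 CPM in samples Xin, 10, 18 and 4. At 1 day it was 2.08, 5.10, 3.45 and 3.29 CPM in samples 13, 16, 17-1 and 17-2. It lay above every sham sample in 3 of 4 samples at 1 day, and the groups overlapped through sample 13. The difference of mean log2(CPM + 1) was 0.63, with an exact two-sided permutation p = 0.0571 (smallest possible 0.0286). After adjustment over the 12 tests of this kind it was 0.229. Samples 17-1 and 17-2 share a date of reverse transcription. With them merged, and 19-1 merged with 19-2, the difference was again 0.63 (n = 3, exact permutation p = 0.114, adjusted 0.343). The fitted log2 fold change was 0.86 (SE 0.43, edgeR adjusted p = 0.591). It fell to 0.50 without the neuron of highest count in each sample and to 0.55 without sample 16, in which 1 NF-like neuron held 52.2% of the UMIs of Hcn3. In the NF-like neurons alone the level was 3.39 ± 1.14 CPM in sham (n = 3) and 6.30 ± 2.79 CPM at 1 day (n = 4), and the 1-day mean was above the sham mean in 6 of 6 named types that could be compared. These type means share samples and were not tested. Some rest on few UMIs of Hcn3, with 8 in sham and 5 at 1 day in SST-like, 8 and 9 in PEP2-like and 5 and 15 in PEP3-like neurons. In NF-like neurons they were 61 and 159. How many of all genes are above sham in 6 of 6 types was not counted, so no rise across types is read from this count. The difference of mean log2(CPM + 1) was 0.68 in NF-like neurons (exact permutation p = 0.171, adjusted 0.686) and 0.24 in all other neurons (p = 0.457, adjusted 0.686).

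At 3 days Hcn3 was 3.20, 2.75 and 1.32 CPM in samples 14, 15 and 17-3, and at 7 days 2.22, 0.840, 3.02, 3.31 and 2.28 CPM in samples 19-1, 19-2, 8, 9 and S. Both times held samples above and below the range of sham. In sample 9 a single neuron held 53.7% of the UMIs of Hcn3. The fitted changes were 0.37 (SE 0.46) and 0.29 (SE 0.41), with edgeR adjusted p = 0.979 and 1.00.

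Hcn4 was measured with the smallest error. It was 10.2, 11.5, 15.4 and 14.4 CPM in sham samples Xin, 10, 18 and 4, and 15.9, 12.7, 17.7 and 22.0 CPM at 1 day in samples 13, 16, 17-1 and 17-2. It was 20.0, 15.7 and 10.7 CPM at 3 days in samples 14, 15 and 17-3. At 7 days the 5 samples were close together, at 11.3, 13.3, 13.3, 13.0 and 14.7 CPM in samples 19-1, 19-2, 8, 9 and S. Of the 1-day samples 3 were above every sham sample, and all 7-day samples lay within the range of sham. The fitted log2 fold changes were 0.33 (SE 0.21), 0.23 (SE 0.22) and -0.031 (SE 0.20), with edgeR adjusted p = 0.668, 0.966 and 1.00. The exact permutation p at 1 day was 0.114, and 0.274 after adjustment.

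Within types the direction of Hcn4 was mixed. Its 1-day mean was above the sham mean in 5 of 6 named types, its 3-day mean in 4 of 7 and its 7-day mean in 3 of 6. In PEP1-like neurons it was 18.4 ± 6.97 CPM in sham (n = 4), 22.6 ± 8.14 at 1 day (n = 4), 17.5 ± 4.44 at 3 days (n = 3) and 13.6 ± 6.72 at 7 days (n = 5), all within 1 SD of sham. In SST-like neurons it was 4.58 ± 0.956 CPM in sham (n = 3), with a range of 3.89 to 5.67 CPM, and higher in every sample at 1 day (8.22 to 24.9 CPM, n = 3) and at 7 days (5.99 to 10.8 CPM, n = 5), while the 3-day range of 4.66 to 11.9 CPM (n = 3) overlapped sham. The type holds clusters 5 and 7, which went opposite ways at 1 day: cluster 5 from 4.88 CPM in sham (n = 3) to 14.2 CPM (n = 2), and cluster 7 from 3.54 CPM (n = 2) to 0.606 CPM in its single 1-day sample. At 7 days both cluster means were above sham, at 8.38 CPM (n = 4) and 6.60 CPM (n = 2). This type was picked after its values were seen among 7 types, its sham level rests on 35 UMIs, and it was not tested. How many of all genes lie apart in this way in SST-like neurons was not counted. The separation is therefore not read as a result about Hcn4.

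Samples 19-1 and 19-2 were both taken at 7 days but hold different shares of injured neurons by their labels: 20 directly and 4 indirectly injured cells in 19-1, and 4 and 20 in 19-2. Hcn2 was 3.38 CPM in 19-1 and 1.47 CPM in 19-2, Hcn3 2.22 and 0.840 CPM, and Hcn4 11.3 and 13.3 CPM. NF-like neurons were 41.7% of cells in 19-1 and 12.5% in 19-2, and with 1 sample of each kind the difference has no replicate check.

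Reverse transcription was done in 2 years. The earlier year holds sham samples Xin, 4 and 10 with 3 samples at 7 days, and the later year holds sham sample 18 with all samples at 1 and 3 days and the other 2 at 7 days. Against the single sham sample of their own year (2.44 CPM), Hcn3 was higher in 3 of 4 samples at 1 day and in 2 of 3 at 3 days. For Hcn4 (15.4 CPM in sample 18) these counts were 3 of 4 and 2 of 3. In the earlier year, Hcn3 was above all 3 sham samples in all 3 samples at 7 days (2.28, 3.02 and 3.31 CPM in S, 8 and 9), as were 6.96% of the 14239 genes tested, whereas both 7-day samples of the later year (2.22 and 0.840 CPM) were below their sham sample. An exact test of 3 samples against 3 cannot reach 0.05 and was not run, and Hcn2 and Hcn4 overlapped in the earlier year. Within that year the authors list an earlier sequencing date for samples Xin and S than for samples 4, 10, 8 and 9. No fit had a term for the sequencing date. With the year as a term in the fit, Hcn3 at 1 day was 1.04 (SE 0.52, edgeR adjusted p = 0.704), and at 7 days 0.26 (SE 0.42), and Hcn4 at 1 day was 0.30 (SE 0.25, adjusted p = 0.768). With the date as a block, Hcn3 was 1.99 (SE 0.85, edgeR adjusted p = 0.353) at 1 day and 0.76 (SE 0.95, adjusted p = 0.782) at 3 days. It was 0.91 (SE 0.59, adjusted p = 1.00) at 7 days, and Hcn4 at 1 day was 0.67 (SE 0.38, adjusted p = 0.458). No sample at 1 or 3 days shares its date with a sham sample, and samples 13, 14, 15 and 16 are alone on theirs. The values at 1 and 3 days are therefore indirect. They link samples 17-1, 17-2 and 17-3 to 7-day samples of their date, and other 7-day samples to sham samples 4 and 10.

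**Figure D4:**
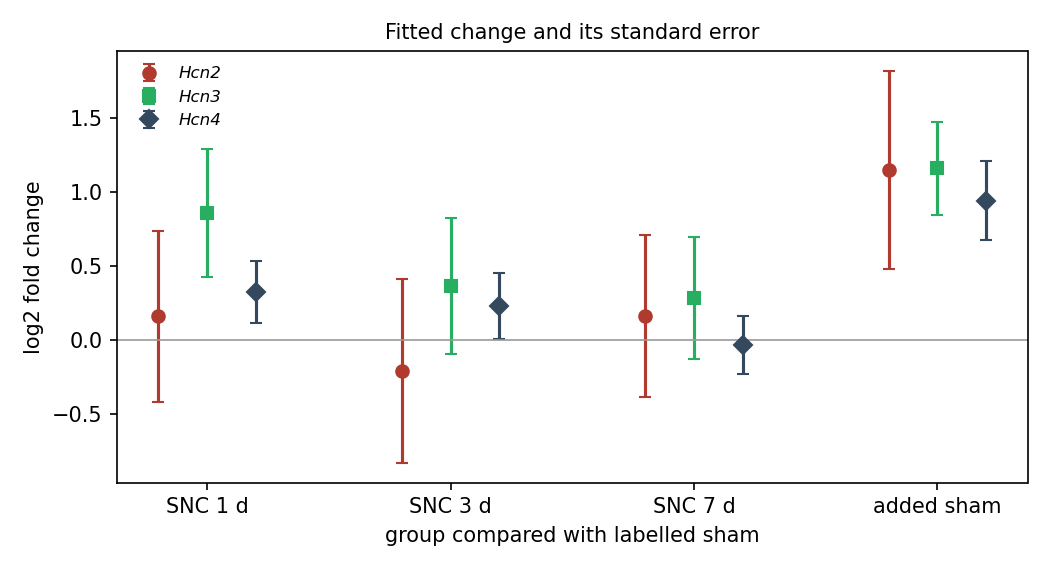
Fitted log2 fold change of each member against labelled sham (vertical axis) at 1, 3 and 7 days after SNC and in added sham, from edgeR, with bars of 1 standard error. The SNC values lie between -0.21 and 0.86, and the values of added sham between 0.94 and 1.16.

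The added sham libraries stood apart from labelled sham throughout. By edgeR, 6415 of 15791 genes were called, or 40.6%, with 3816 higher and 2599 lower in added sham and a median log2 fold change over all genes of 0.15. Library source, dye, depth and any difference in handling cannot be told apart here. Hcn3 and Hcn4 were among the higher genes and Hcn2 was not called, so 2 of 3 members were called against that background.

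Hcn3 was 5.86, 4.55, 4.33, 4.86, 4.44, 4.39 and 3.16 CPM in added libraries S1 to S7, all above the highest labelled sham sample at 2.44 CPM, as were all libraries for 19.9% of the genes tested. The fitted log2 fold change was 1.16 (SE 0.31, edgeR adjusted p = 0.0107). The exact permutation p was 0.00606, the smallest that 7 against 4 samples can give, and 0.0727 after adjustment over the 12 tests. The groups overlapped with cells thinned to 20000 UMIs (exact permutation p = 0.0606, adjusted 0.182). They also overlapped by the mean of the cells' CPM (exact permutation p = 0.0303, adjusted 0.121). In NF-like neurons alone the groups overlapped and the difference of mean log2(CPM + 1) was 0.32 (exact permutation p = 0.286, adjusted 0.857). It was 0.96 in all neurons and 1.20 in the neurons that were not NF-like. The sets compared are unlike, as labelled NF-like neurons pool clusters 3 and 4 and added ones are a single cluster led by Shox2. Added cluster 0, counted as not NF-like, had Nefh at 1287 CPM and shares Chp2 among its leading genes with labelled cluster 4. Without the clusters rich in glial genes the adjusted permutation p was 0.0364, but this left out 136 added neurons (cluster 0, Hcn3 2.66 CPM) and only 42 labelled ones (cluster 8, 2.10 CPM).

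Hcn4 was 31.3, 34.3, 28.3, 28.0, 21.8, 31.7 and 13.6 CPM in S1 to S7. All but S7 were above the labelled sham samples. The fitted log2 fold change was 0.94 (SE 0.27, edgeR adjusted p = 0.0132), and the exact permutation p was 0.0182, or 0.109 after adjustment. The call was lost with the 3 added libraries of 0 day alone (S1, S2 and S7; adjusted p = 0.0912, and 0.0882 for Hcn3), without sham sample 10 (adjusted p = 0.0608) and on thinned counts (adjusted p = 0.0583). Without the glia-rich clusters it was 1.33 (adjusted p = 3.94e-04), where the added neurons left out had a low level of Hcn4 (12.2 CPM) and the labelled ones a high level (19.5 CPM).

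Hcn2 was 1.29, 4.42, 6.80, 16.3, 7.37, 5.99 and 3.83 CPM in S1 to S7, and its groups overlapped. The fitted log2 fold change was 1.15 (SE 0.67, edgeR adjusted p = 0.185). It was 1.97 (adjusted p = 0.0464) without sham sample 4, 0.73 without S4 and 0.13 with the 0-day libraries alone. The highest level, in S4, went with the highest share of NF-like neurons, 51.2% of cells against 0% to 27.1% in the other added libraries; S1 and S2 held no NF-like neuron. In the neurons that were not NF-like, the mean log2(CPM + 1) of Hcn2 was 1.02 higher in added sham (exact permutation p = 0.0242, adjusted 0.121). These neurons include added cluster 0 (Nefh 1287 CPM) but not labelled cluster 4, so the sets compared are unlike.

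The summed level of the 8 glial markers was 374 to 1799 CPM in the added libraries and 776 to 1688 CPM in labelled sham, with none of the 8 at 0 in either group. The 6 immune markers summed to 4.31 to 16.6 CPM in added and 5.75 to 20.1 CPM in labelled sham. The stromal and vascular markers differed more, at 3.22 to 36.5 CPM in added and 1.45 to 11.8 CPM in labelled sham, with Cldn5, the endothelial marker, at 0 in both. Their part in the levels of the members was not tested.

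The genes around the channels were taken from lists of 79 genes, of which 74 were in the files. None of the 61 that could be tested was called at 1, 3 or 7 days after SNC, by edgeR over all genes, with 6, 1 and 3 of them at an unadjusted p under 0.05. Against added sham, 24 of 67 (35.8%) were called, 20 of them higher, which is near the 40.6% of all genes. The counts of the single lists below are to be read beside that share of all genes, and no list was tested as a set.

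Of the proteins that bind HCN channels or set their number at the membrane, 8 of 12 were called in added sham, 6 higher and 2 lower. Their median log2 fold change was 0.86, and that of all genes tested was 0.15. Pex5l, which encodes the auxiliary subunit TRIP8b, was 90.2 ± 21.6 CPM in labelled and 179 ± 22.8 CPM in added sham (log2 fold change 0.87, edgeR adjusted p = 8.62e-04). Kctd3, which binds HCN3, was 29.1 ± 8.31 and 89.2 ± 6.05 CPM (1.49, edgeR adjusted p = 8.36e-05), and Nedd4l, a ubiquitin ligase, 103 ± 12.6 and 204 ± 32.9 CPM. Flna, Cav1 and Mrvi1 were higher too, the last from 0.10 to 3.44 CPM on few counts. Vapa and Vapb, which encode proteins of the endoplasmic reticulum, were lower, Vapa at 444 ± 19.0 CPM in labelled and 324 ± 29.2 CPM in added sham. After SNC the lowest unadjusted p of this list were those of Vapb at 1 day (edgeR adjusted p = 0.680) and of Flna at 3 and 7 days (edgeR adjusted p = 0.966 and 1.00).

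Among the genes of cyclic AMP synthesis 3 of 11 were called in added sham, all higher. Adcy5, an adenylyl cyclase, was 7.43 ± 1.72 CPM in labelled and 30.5 ± 5.03 CPM in added sham (1.92, edgeR adjusted p = 1.02e-04), and the cyclase Adcy6 and the inhibitory G protein gene Gnai2 (242 ± 22.1 and 364 ± 57.0 CPM) were the others. Gnai3, the second most abundant gene of the list, was 123 CPM in labelled and 148 CPM in added sham and was not called. The lowest unadjusted p after SNC in this list was that of Adcy3 at 1 day, at 28.0 ± 11 CPM in sham and 50.3 ± 12.4 CPM at 1 day (0.77, SE 0.23, edgeR adjusted p = 0.518). Adcy6 at 3 days and Adcy5 at 7 days came first at the other times, with edgeR adjusted p = 0.966 and 1.00.

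Of the receptors that raise cyclic AMP, 3 of 9 were called in added sham. Among them Htr4, a serotonin receptor, was 8.81 ± 1.20 CPM in labelled and 25.4 ± 18.0 CPM in added sham, while Ptger4, a prostaglandin receptor, was lower at 2.91 ± 1.35 and 0.503 ± 0.383 CPM. Ptgir, the prostacyclin receptor and the most abundant of the list, was 137 CPM in labelled and 155 CPM in added sham. Adora2a, an adenosine receptor, had the lowest unadjusted p at 1 and 7 days after SNC (6.95 CPM in sham, 13.8 and 10.6 CPM; edgeR adjusted p = 0.534 and 1.00).

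Of the cyclic AMP effectors 2 of 11 were called in added sham, in opposite directions. Prkaca, a catalytic subunit of protein kinase A, was higher (110 ± 21.5 and 241 ± 93.4 CPM, log2 fold change 1.01), and Prkar1a, a regulatory subunit, lower (221 ± 13.9 and 119 ± 38.0 CPM, -1.03). Prkar2b was the most abundant gene of the list, at 256 CPM in labelled and 294 CPM in added sham. Prkacb at 1 day, Prkaca at 3 days and Bves at 7 days had the lowest unadjusted p after SNC, none with an edgeR adjusted p under 0.569.

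Of the phosphodiesterases, which break down cyclic nucleotides, 6 of 14 were called, all higher in added sham: Pde1b, Pde2a, Pde3b, Pde4d, Pde7a and Pde7b. Pde3b had the lowest p, at 5.72 ± 3.40 CPM in labelled and 25.7 ± 5.10 CPM in added sham (2.00, edgeR adjusted p = 0.00204), and Pde2a was the most abundant, at 57.9 ± 6.88 and 84.6 ± 12.3 CPM. Pde1c, the next in abundance, was 36.8 and 42.4 CPM. After SNC the lowest p were those of Pde4b at 1 day, Pde3a at 3 days and Pde7b at 7 days, with edgeR adjusted p = 0.604, 0.966 and 1.00.

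Of the genes of other currents that act near rest, 2 of 10 were called, both higher in added sham. Cacna1h, a T-type calcium channel, was 0.570 ± 0.360 CPM in labelled and 6.28 ± 2.32 CPM in added sham (3.23, edgeR adjusted p = 3.08e-04), and Kcnq5, a subunit of the M-current, 32.6 ± 13.3 and 116 ± 73.5 CPM (1.68, adjusted p = 0.0370). Scn9a, the sodium channel Nav1.7, was the most abundant at 423 CPM in labelled and 539 CPM in added sham. Kcnq5 at 1 day, Kcnk3 at 3 days and Kcnk18 at 7 days had the lowest unadjusted p after SNC (edgeR adjusted p = 0.534, 0.975 and 1.00).

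By cluster, the partner genes did not share one pattern with the channels. Pex5l was highest in NP-like neurons at 145 CPM and was 124 and 134 CPM in the NF-like clusters, against 41.5 CPM in the cold-like neurons. Kctd3 was highest in NF-like cluster 4 at 42.1 CPM and cluster 3 at 39.3 CPM, the clusters of the highest Hcn3. Prkaca was also highest in NF-like neurons, at 206 CPM in cluster 3 and 165 CPM in cluster 4, while Prkar2b was lowest in cluster 3 at 76.9 CPM.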

How the data were processed

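Single neurons were lysed, and their RNA was copied by a modified Smart-seq2 protocol with a cell barcode and a UMI at the 3′ end. Per the labels, the authors aligned reads to the rat genome Rnor_6.0 with STAR and used featureCounts (Subread), SAMtools and UMI-tools, and the deposited values are whole UMI counts per gene and cell without normalization. Versions are not given in the labels. Genes were matched by name over 24 libraries. The 2 libraries of sample S were summed. No cell repeated another's values, no cell name occurred in more than 1 library, and samples of a group differed by more than counting error (chi-square over its degrees of freedom of 10.1 or more).

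Cells were clustered with Seurat 5.3.0 (log-normalization to 10000, 2000 variable genes, 40 principal components, resolution 0.5). Hcn3, the only member among the labelled variable genes, was taken out. A cluster was named for the type with the largest share of its markers high (mean at least 1.5 times that of other cells, a UMI in at least 25% of cells, at least 3 markers). It stayed unnamed if many glial markers were high, or if its leading genes held another type's marker and none of its own. Low depth without an own marker among the leading genes had the same effect. Added clusters 2 and 6 stayed unnamed with Mrgprb4 and Calb1 among their leading genes. No doublet caller was run on these hand-picked cells. Counts per DRG sample were tested with the quasi-likelihood test of edgeR 4.0.16 (TMM, filterByExpr, Benjamini-Hochberg, adjusted p under 0.05), with the 4 labelled groups in 1 fit and added sham against labelled sham in another. DESeq2 1.42.0 was an alternative. Printed levels are CPM of summed counts without TMM. Members were also compared by exact permutation tests of log2(CPM + 1), adjusted over 12 tests. Scripts ran in Python 3.11.15 and R 4.3.3 and were tested on simulated data. P-values measure the spread between samples; the labels do not say which samples share a rat.

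The members, gene lists and tests were chosen with earlier results of these data known. Named were the members, their 3 most similar genes each, and of the lists the called genes, the 2 most abundant and the gene of lowest p per comparison, beside type markers; Atf3, Sprr1a, Cldn5 and the genes that lead clusters were named after their values were seen. Another member of the family and 1 gene of the lists are not reported here by name.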

Additional observations from a re-analysis of the deposited data

Results flagged for a closer look

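In 33 groups of 4 to 10 samples, 6 held a flagged sample. Its gap to the next was a large part of the group's range (Dixon's 95% limit). That limit flags about 1 in 20 groups of independent, normally spread values. These groups share libraries and hold sparse counts, so this rate does not apply to them. Hcn2 was 16.3 CPM in added library S4, against 7.37 CPM in the next highest of 7 libraries. In the unnamed, glia-rich cluster 0 of the added neurons Hcn2 was 21.0 CPM in S2, in cluster 4 it was 4.15 CPM in S2, and in NP-like neurons Hcn3 was 10.1 CPM in S4. In the 28 SST-like neurons of added sham, Hcn3 was 8.74 CPM in S3 and 0 in the other libraries, and Hcn4 was 30.8 CPM in S1.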

How the results depend on the processing

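All alternatives kept the SNC results of the members below the threshold. The counts of called genes moved from 0 to 11 at 1 day and 1 at 3 days with DESeq2, to 1 at 1 day and 1 at 3 days with a term for the year in which RNA was reverse transcribed, to 1 and 3 with the date as a block, and to 1 at 3 days without a filter or on thinned counts; leaving out 1 sample gave 0 to 1 at 1 day (1 without sample 19-2), 0 to 1 at 3 days (1 without 17-3) and 0 to 0 at 7 days. Against labelled sham, 3410 genes were called with the 0-day added libraries alone, and 5051 to 6403 when 1 sample was left out. The cause was not tested.

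Differences of mean log2(CPM + 1) that turned sign were those of Hcn2 at 1 day in NF-like neurons alone (-0.25) and at 3 days without NF-like neurons (-0.20), of Hcn3 at 7 days on thinned counts (-0.33) and in NF-like neurons alone (-0.022), of Hcn4 at 3 days on thinned counts (-0.22), and of Hcn4 at 7 days by the mean of the cells' CPM (-0.055), on thinned counts (-0.13) and without NF-like neurons (-0.065). Leaving out 1 sample moved Hcn2 between 0.02 and 0.80 at 1 day, -0.28 and 0.50 at 3 days, 0.05 and 0.83 at 7 days and 0.73 and 1.51 in added sham. Hcn3 moved between 0.47 and 0.80, 0.07 and 0.50, 0.08 and 0.39, and 0.90 and 1.06, and Hcn4 between 0.25 and 0.50, 0.03 and 0.45, -0.058 and 0.12, and 0.88 and 1.13. Without the glia-rich clusters Hcn3 (1.01) and Hcn4 (1.38) in added sham passed the adjusted permutation test. The edgeR log2 fold change of Hcn2 at 3 days was 0.21 with the year and 0.0085 with the date, that of Hcn4 -0.37 on thinned counts and -0.10 with the date at 3 days, and 0.036 with the date at 7 days. Leaving out 1 sample moved the edgeR log2 fold change of Hcn2 between -0.19 and 1.04 at 1 day, -0.73 and 0.67 at 3 days and -0.11 and 1.04 at 7 days, and that of Hcn4 at 7 days between -0.099 and 0.056. The sign turned without 10, 13 or Xin at 1 day, 15 or 4 at 3 days and 10 or Xin at 7 days for Hcn2, and without 18, 19-1 or 4 for Hcn4.

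Of 123 type levels under other settings 122 moved by less than 1 SD, and Hcn3 in PEP2-like neurons was 3.78 CPM on thinned counts. At a resolution of 0.3 no cluster was PEP2-like. Thinned Hcn2 and Hcn3 were too sparse for edgeR. The comparisons in NF-like neurons alone, without NF-like neurons and without the highest cells were chosen after seeing the data. The labels give no replicate number that pairs samples across groups, and the only blocked fit was that by date of reverse transcription. In that fit the values at 1 and 3 days are indirect, as no such sample shares a date with a sham sample.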
